A study of Mus musculus with 4 samples.

Results

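Cycling nuclei of any lineage were chosen by measured values, namely at least 1 UMI (a molecule counted once by its tag) for at least 3 of 9 genes of mitosis and late S phase, namely Mki67, Cenpe, Top2a, Cenpf, Neil3, Ncapg, Knl1, Aspm and Hmmr. Nuclei chosen this way numbered 339 of the 50067 nuclei kept, or 0.677%. The nuclei came from the inguinal white fat of C57BL/6N mice aged 6 months, a depot under the skin of the groin, profiled by single-nucleus RNA sequencing. Of 4 libraries, 2 are labelled WT and 2 are labelled PTRF knockout, and a title names the distal enhancer of Ptrf, an older name of Cavin1. No allele, promoter or Cre driver is given in the labels, no treatment is stated, and both groups share strain, tissue and age. Each library is given below by its label and number.

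Cavin1, which encodes the cavin-1 coat protein of caveolae, went against the labels: its UMIs over all nuclei numbered 40 in the library labelled WT 1, 9 in that labelled WT 2, 730 in that labelled PTRF knockout 1 and 1759 in that labelled PTRF knockout 2. Cycling nuclei held 0, 0, 2 and 4 of these UMIs in the same order, too few for a level of their own. Directions between groups are therefore given by label only, and no comparison here says which genotype is higher. The libraries kept 15528, 6664, 11988 and 15887 nuclei with median depths of 1022, 933.5, 844.5 and 1401 UMIs. Barcodes that occurred in more than 1 library numbered 508 of 49557, no barcode was cycling in more than 1 library, and 5 cycling nuclei had a barcode that another library also held.

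A cell that divides copies its DNA in S phase, checks and condenses its chromosomes in G2, and parts them on the spindle in mitosis. D-type cyclins with Cdk4 or Cdk6 and then E-type cyclins with Cdk2 release E2F factors from the retinoblastoma family, which switches on the replication genes. The genes of G2 and mitosis follow later through the MuvB complex with B-Myb and FoxM1, and in resting cells the DREAM complex keeps both waves silent. In adipose tissue mature adipocytes do not divide, whereas lymphocytes can divide in the lymph node that lies in the inguinal pad and in the tissue, and mammary epithelium grows through the same pad in female mice. Because the gate reads late genes, nuclei in G1 or early S phase are largely outside it.

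Most of the 9 gate genes hold a promoter motif that the gate did not use, and the promoters of those that also hold a CCAAT box are shown. The cell cycle homology region, read by MuvB complexes near the start of G2 and mitosis genes, was searched as TTTGAA or TTCGAA on both strands in RefSeq promoters of GRCm38.p6, from 170 bases before to 30 bases after the start, 200 bases in all. It was present in 6 of the 9 gate genes (66.7%), against 12.6% of all 32851 promoters in the table. A CCAAT box, searched as CCAAT on both strands, was present in 6 of the 9 (66.7%), against 29.0% of all promoters. Both were present in Mki67, Top2a, Cenpf, Aspm and Hmmr, 5 of 9 (55.6%) against 3.81% of all promoters. Capitals mark the cell cycle homology letters in these 5, each given 5′ to 3′ on the strand of its gene.
Mki67: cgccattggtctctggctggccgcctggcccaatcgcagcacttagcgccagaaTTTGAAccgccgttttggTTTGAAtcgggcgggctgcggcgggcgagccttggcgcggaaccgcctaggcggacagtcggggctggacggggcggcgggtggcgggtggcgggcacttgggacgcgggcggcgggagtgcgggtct
Top2a: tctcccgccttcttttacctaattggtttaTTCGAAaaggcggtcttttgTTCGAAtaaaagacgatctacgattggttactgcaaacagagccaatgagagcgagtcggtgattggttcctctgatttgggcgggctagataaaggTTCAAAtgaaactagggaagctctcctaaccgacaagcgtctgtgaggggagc
Cenpf: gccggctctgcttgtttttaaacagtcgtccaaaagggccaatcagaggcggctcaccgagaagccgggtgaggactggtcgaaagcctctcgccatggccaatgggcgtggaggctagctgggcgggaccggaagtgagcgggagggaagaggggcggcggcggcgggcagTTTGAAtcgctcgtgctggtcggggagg
Aspm: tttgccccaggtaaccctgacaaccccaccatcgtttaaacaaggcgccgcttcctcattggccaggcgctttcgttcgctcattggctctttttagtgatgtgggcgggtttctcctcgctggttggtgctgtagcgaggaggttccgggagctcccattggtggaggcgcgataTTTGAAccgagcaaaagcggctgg
Hmmr: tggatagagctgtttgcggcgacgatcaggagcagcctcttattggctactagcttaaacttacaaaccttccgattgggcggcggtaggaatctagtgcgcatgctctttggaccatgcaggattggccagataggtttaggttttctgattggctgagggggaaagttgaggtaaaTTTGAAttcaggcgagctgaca
The windows are chr7:135716350-135716549 on the minus strand for Mki67, chr11:99024160-99024359 on the minus strand for Top2a, chr1:189688057-189688256 on the minus strand for Cenpf, chr1:139454603-139454802 on the plus strand for Aspm and chr11:40733408-40733607 on the minus strand for Hmmr. Mki67 held 2 such hexamers, beginning at bases -116 and -98 from the start, and Top2a held 3, beginning at -140, -120 and -23. In Cenpf, Aspm and Hmmr the hexamer began at bases 3, 7 and 9 after the annotated start. Ncapg held it at -30 without a CCAAT box, Cenpe held a CCAAT box without it, and Neil3 and Knl1 held neither in this window.

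Replication genes held another motif, the E2F site, more often than mitotic genes did, though most held none. E2F sites were searched as TTTCCCGC, TTTCGCGC, TTTGCCGC or TTTGGCGC on both strands, in the same windows. Of the 27 genes of the S phase list with a promoter in the table, 11 (40.7%) held an E2F site and 3 (11.1%) held a cell cycle homology hexamer. A CCAAT box was present in 17 of them (63.0%), near the share of the gate genes. Of the 18 mitotic kinesin and spindle genes with a promoter, 2 (11.1%) held an E2F site and 13 (72.2%) held the hexamer, the highest share among the lists. The hexamer was less frequent in mitotic kinase and cyclin genes, at 6 of 14 (42.9%), and in kinetochore genes, at 5 of 17 (29.4%). Of these, 1 and 0 held an E2F site. These shares count a gene if any of its promoters holds the site. Over all genes of the table the E2F site was present in 1.87% and the hexamer in 14.3%. Counted by promoter, the E2F site was present in 32.4% for the S phase list and 1.62% over all. Pola1 and Hells are shown, as the S phase genes with the highest levels in cycling nuclei among those with an E2F site, and here the capitals mark that site.
Pola1: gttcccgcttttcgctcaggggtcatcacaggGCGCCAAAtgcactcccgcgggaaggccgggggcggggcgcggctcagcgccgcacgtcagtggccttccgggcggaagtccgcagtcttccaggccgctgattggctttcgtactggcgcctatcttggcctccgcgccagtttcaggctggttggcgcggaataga
Hells: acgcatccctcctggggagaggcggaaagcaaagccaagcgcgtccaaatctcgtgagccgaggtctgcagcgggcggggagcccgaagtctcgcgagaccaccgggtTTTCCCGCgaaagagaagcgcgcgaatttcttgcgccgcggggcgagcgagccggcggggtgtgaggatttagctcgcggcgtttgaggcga
Their windows are chrX:93632126-93632325 on the minus strand and chr19:38930820-38931019 on the plus strand. Letters of different motifs overlapped in none of the windows of the 9 gate genes, Pola1 and Hells, and a match describes the letters only.

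Cycling nuclei were 120 of 15528 in the library labelled WT 1 (0.773%), 74 of 6664 in that labelled WT 2 (1.11%), 42 of 11988 in that labelled PTRF knockout 1 (0.350%) and 103 of 15887 in that labelled PTRF knockout 2 (0.648%). Exact binomial 95% intervals over nuclei, which cover counting error only, were 0.641 to 0.923%, 0.873 to 1.39%, 0.253 to 0.473% and 0.529 to 0.786%. Both libraries labelled WT lay above both labelled PTRF knockout. The means were 0.942 ± 0.239% and 0.499 ± 0.211% (SD, n = 2 libraries each), a difference of -0.442 percentage points for labelled PTRF knockout minus labelled WT. An exact permutation test over libraries, two-sided, gave p = 0.333, the smallest value that 2 against 2 libraries can give. With 1 library left out the difference ranged from -0.611 to -0.273 points; it was -0.273 without the library labelled WT 2 and -0.293 without that labelled PTRF knockout 1.

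Depth moved with membership of the gate, and its part beyond the thinning below was not tested. Cycling nuclei had median depths of 1518.5, 1355.5, 1316 and 3846 UMIs, against 1019, 929, 843 and 1393 in other nuclei of the same libraries. When each nucleus was thinned to 1000 UMIs, which left out 7550, 3679, 7588 and 5740 shallower nuclei, the cycling shares were 0.953, 1.51, 0.455 and 0.572%. Thinned to 500 UMIs with none left out, they were 0.309, 0.360, 0.125 and 0.283%. The groups did not overlap at either depth. With a gate of at least 2 genes the shares ran from 0.876% in the library labelled PTRF knockout 1 to 2.48% in that labelled WT 2, and the groups overlapped.

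**Figure D1:**
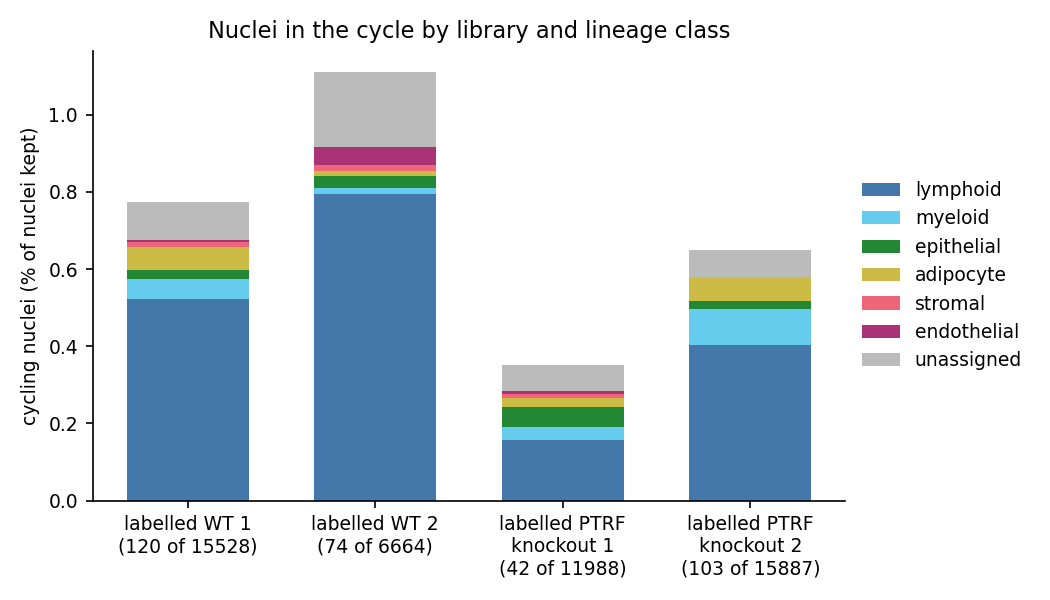
Cycling nuclei as a percentage of nuclei kept in each library, with the bar split by lineage class. The library labelled WT 2 is highest at 1.11% and that labelled PTRF knockout 1 lowest at 0.350%, and the lymphoid segment is the largest in each bar.

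At the edge of the gate, 119 nuclei had exactly 3 of the 9 genes and 376 had exactly 2, just outside. Their median depths were 1310 and 1247.5 UMIs, and 62.2% and 43.9% were lymphoid. Nuclei with 0 gate genes were 22.8% lymphoid. All 9 genes were detected in 10 nuclei, with a median of 8563 UMIs.

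Mki67, which encodes the Ki-67 protein that coats mitotic chromosomes, was the gate gene most often detected. It was present in 96.7, 87.8, 78.6 and 93.2% of the cycling nuclei of the libraries labelled WT 1, WT 2, PTRF knockout 1 and PTRF knockout 2, and in 1.42% of the nuclei outside the gate. Of all Mki67 UMIs of the 4 libraries, 63.2% lay in the 339 cycling nuclei. Top2a, the topoisomerase that untangles sister chromatids, was present in 72.9% of cycling and 1.91% of other nuclei, and in 1.54% of adipocyte nuclei outside the gate, a type that should lack it. Cenpe, the kinetochore motor, was present in 60.5%, Cenpf, a large protein of the outer kinetochore, in 51.9% and Knl1, the kinetochore scaffold for checkpoint kinases, in 51.6%. The less frequent genes were Neil3, a DNA glycosylase of replication-linked repair, at 40.4%, Hmmr, a spindle protein, at 31.9%, Aspm, a spindle pole protein, at 31.0%, and Ncapg, a condensin subunit, at 25.1%. These values describe the rule that chose the nuclei.

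Levels of the leading gate genes differed between libraries. Mki67 in cycling nuclei stood at 2993, 1997, 1384 and 2023 CPM (UMIs of the gene per 1000000 UMIs of the same nuclei, a level that is not per gene length), and Top2a at 1094, 804, 1081 and 1313 CPM. Top2a, Neil3, Ncapg, Aspm, Hmmr and Knl1 were detected in the largest share of nuclei in the library labelled PTRF knockout 2, whose cycling nuclei were the deepest.

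**Figure D2:**
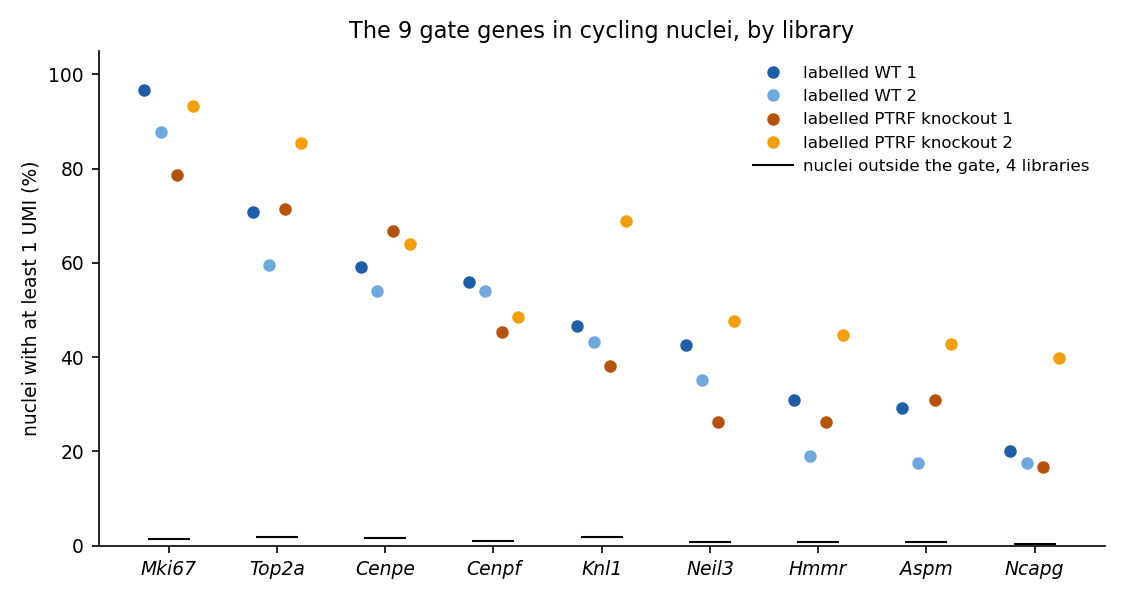
Share of cycling nuclei with at least 1 UMI of each gate gene, by library, as points, with black dashes for nuclei outside the gate of all 4 libraries. Mki67 leads at 78.6 to 96.7%, and the highest dash, for Top2a, is at 1.91%.

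Which lineages these nuclei belonged to was read from 13 lists of markers that hold no gate gene; a nucleus took the list with the most distinct markers, at least 2 and more than any other list. Lymphoid nuclei made up 217 of the 339 (64.0%, exact binomial 95% interval 58.7 to 69.1%), against 23.8% of all nuclei. By library they made up 67.5, 71.6, 45.2 and 62.1% of cycling nuclei, and 23.4, 21.3, 21.0 and 27.2% of all nuclei, so the share was higher among cycling nuclei in each of the 4. T and NK nuclei numbered 128, B nuclei 86 and plasma nuclei 3. Macrophage nuclei numbered 24, adipocyte nuclei 23, luminal epithelial nuclei 15, vascular endothelial nuclei 5, and dendritic and progenitor nuclei 4 each. No cycling nucleus had the leading list of lymphatic endothelium, pericytes and smooth muscle, myoepithelium or Schwann cells, and 47 stayed unassigned.

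The markers with the most UMIs in each lineage are given as a description, since these lists assigned the nuclei. Skap1, a T cell adaptor, was present in 83.6% of the 128 cycling T and NK nuclei, Themis, a T cell selection protein, in 59.4% and Grap2, an adaptor of the T cell receptor, in 63.3%. Among the 86 cycling B nuclei, Bank1, a B cell scaffold protein, and Pax5, the B lineage factor, were each present in 70.9% and Ms4a1 (CD20) in 69.8%. Of 24 macrophage nuclei, 19 held F13a1, 19 held Mrc1 and 20 held Adgre1 (F4/80). Of 15 luminal nuclei, 9 held Epcam, 10 held Spint2, 10 held Cdh1 and 5 held Prlr, the prolactin receptor. In the 23 nuclei of the adipocyte list, Ghr was present in 21, while Pck1 stood at 752 CPM against 1393 CPM in other adipocyte nuclei.

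Among T and NK nuclei, 2.49% and 2.35% cycled in the libraries labelled WT and 1.29% and 1.39% in those labelled PTRF knockout. With the gate read after thinning to 500 UMIs, the shares were 0.995, 0.856, 0.380 and 0.671%. The lineage was still read at full depth, where T and NK nuclei had medians of 809, 778, 772 and 1593 UMIs. The 2 groups did not overlap in either form. These shares of single lineages were not tested.

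B nuclei differed widely between libraries. Cycling B nuclei were 20 of 1216 (1.64%) in the library labelled WT 1, 29 of 476 (6.09%) in that labelled WT 2, 2 of 1146 (0.175%) in that labelled PTRF knockout 1 and 35 of 2141 (1.63%) in that labelled PTRF knockout 2. Thinned to 500 UMIs for the gate, with the lineage still read at full depth, they were 0.740, 2.31, 0.0873 and 0.654%. The library labelled WT 2 was the highest and that labelled PTRF knockout 1 the lowest at both depths, and the spread within each label was wider than the gap between labels WT 1 and PTRF knockout 2.

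Macrophage nuclei cycled in 1.46, 0.503, 1.24 and 2.39%, from 1 to 14 nuclei a library. Luminal epithelial nuclei cycled in 0.181, 0.372, 0.492 and 0.286%. Of 4407 progenitor nuclei, the fibroblast-like cells from which adipocytes form, 4 passed the gate (0.0908%). Nuclei of the adipocyte list passed it in 23 of 13205 (0.174%), at a median of 1293 UMIs outside the gate, and serve as the level in a type that should not divide. The exact intervals of progenitor nuclei, 0.0247 to 0.232%, and of luminal nuclei, 0.168 to 0.493%, both overlapped the adipocyte interval of 0.110 to 0.261%. These intervals pool the libraries and cover counting error only. By library, progenitors lay above adipocytes in those labelled WT 2 and PTRF knockout 1 and below them in the other 2. Luminal nuclei lay above adipocytes in those labelled WT 2, PTRF knockout 1 and PTRF knockout 2 and below them in that labelled WT 1. They were also deeper, at a median of 1916 UMIs outside the gate.

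**Figure D3:**
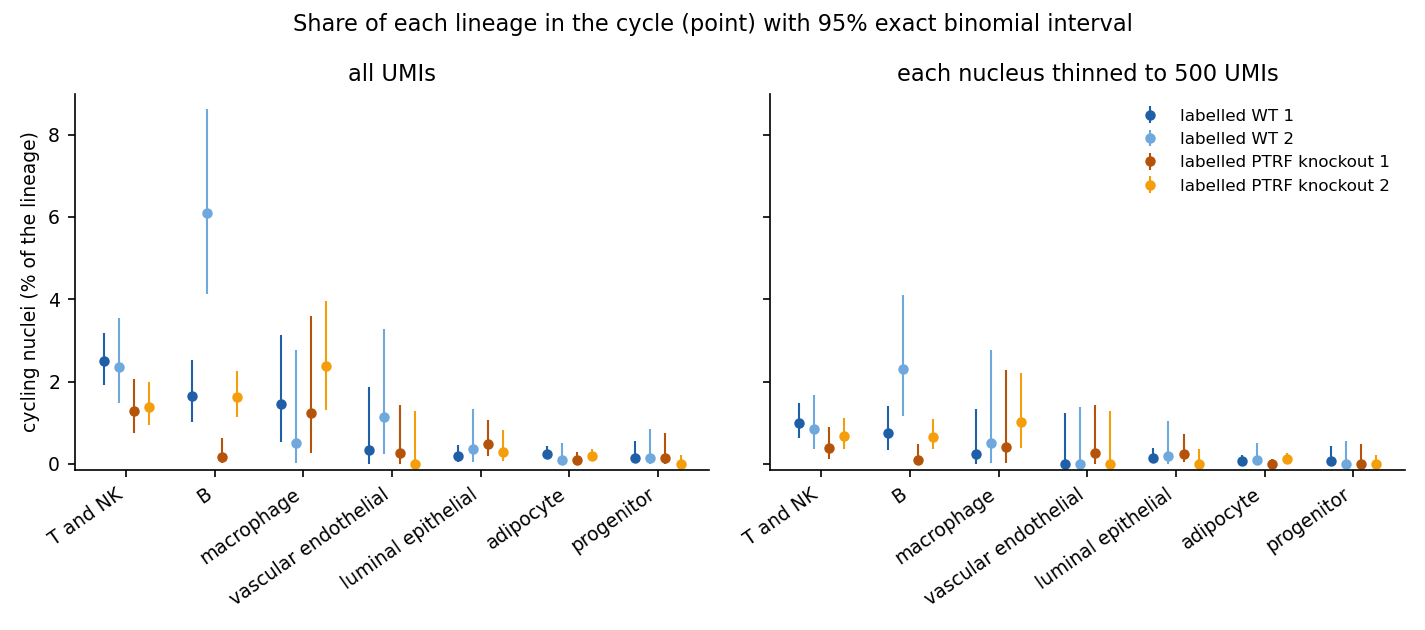
Share of each lineage that passed the gate in each library, as a point with its exact binomial 95% interval. The gate is on all UMIs at left and after thinning to 500 UMIs at right, with the lineage read at full depth in both. T and NK, B and macrophage nuclei lie above adipocyte and progenitor nuclei on all UMIs when the libraries are pooled, and B nuclei of the library labelled WT 2 stand highest at 6.09%.

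The lineage makeup of cycling nuclei was compared between the labels for 3 classes. Lymphoid nuclei made up 69.6 ± 2.91% of cycling nuclei in the libraries labelled WT and 53.7 ± 11.9% in those labelled PTRF knockout (SD, n = 2 libraries each), a difference of -15.9 points with an exact permutation p of 0.333, two-sided, again the smallest that can occur. The difference was -7.42 points without the library labelled PTRF knockout 1 and -24.3 points without that labelled PTRF knockout 2. The groups overlapped when a lineage needed at least 3 markers, where the shares were 59.2, 55.4, 42.9 and 60.2%. They also overlapped when nuclei were thinned to 1000 UMIs, at 68.4, 68.9, 40.0 and 74.1%, and with a gate of at least 2 genes, at 61.8, 51.5, 38.1 and 54.2%. Luminal nuclei, the only epithelial ones, made up 3.33, 2.70, 14.3 and 2.91% (4, 2, 6 and 3 nuclei), a difference of 5.58 points with an exact permutation p of 0.667, and it was -0.105 points without the library labelled PTRF knockout 1. Stromal nuclei made up 1.67, 1.35, 2.38 and 0% (2, 1, 1 and 0 nuclei), a difference of -0.319 points with an exact permutation p of 1, and it was 0.872 points without the library labelled PTRF knockout 2. The epithelial and stromal differences were not detectable at these numbers of nuclei.

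Beyond the gate, most cell cycle genes stood higher per UMI in cycling than in other nuclei. Genes with at least 50 UMIs over all nuclei were counted as higher when they were so in 4 of 4 libraries, which held for 7.80% of the 25975 such genes off the gate, while 27.8% were lower in all 4. Since the gate genes chose the nuclei, these counts describe the nuclei and test nothing. The mitotic lists came out nearly whole: 9 of 9 cytokinesis genes, 19 of 20 kinesin and spindle genes, 18 of 20 kinetochore genes, and 16 of 18 mitotic kinase and cyclin genes were higher. Of the S phase list 28 of the 34 that passed were higher, and Cdt1, the remaining member of the 35, had no UMI.

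In the S phase list, Pola1, the catalytic subunit of DNA polymerase alpha, stood at 584 CPM in cycling and 98.8 CPM in other nuclei. Atad2, a chromatin ATPase, stood at 390 against 56.8 CPM, and Hells, a chromatin remodeller of DNA methylation, at 300 against 20.5 CPM. By library, Hells in cycling nuclei stood at 344, 138, 356 and 312 CPM, each above the 18.9 to 22.8 CPM of other nuclei.

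The kinesin list had a median log2 ratio of 3.37 between cycling and other nuclei, the kinetochore list 3.59 and the S phase list 2.56, against -0.15 over all genes counted. Kif15 and Kif11, both spindle kinesins, stood at 410 against 16.6 CPM and at 373 against 22.2 CPM, and Kif20b, a kinesin of late mitosis, at 423 against 20.9 CPM. Incenp, the scaffold of the chromosomal passenger complex, stood at 317 against 14.2 CPM, Cenpp at 615 against 67.7 CPM and Cenpc1, which links centromeric chromatin to the kinetochore, at 277 against 77.3 CPM. Bub1b and Bub1, kinases of the spindle checkpoint, stood at 138 against 12.4 CPM and 114 against 5.40 CPM, and Mastl, the Greatwall kinase of mitotic entry, at 121 against 11.0 CPM. Diaph3, a formin of the cleavage furrow, stood at 886 against 51.8 CPM, Cep128, a centriole protein, at 645 against 146 CPM and Anln, the anillin scaffold, at 248 against 19.9 CPM.

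Condensin and cohesin genes were higher in 10 of 12 and repair genes of the replication fork in 13 of 15. Smc4 and Smc2, the paired core subunits of condensin, stood at 906 against 124 CPM and at 428 against 26.9 CPM, and Smc1a of cohesin at 365 against 149 CPM. Rad51b, Brip1 and Polq, which act in homologous recombination, interstrand crosslink repair and end joining by theta polymerase, stood at 897 against 261, 223 against 31.2 and 190 against 19.3 CPM.

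Regulators of the cycle were more mixed. Of the E2F, DREAM and MuvB list, 12 of 16 were higher, with E2f7, an E2F repressor, at 214 against 13.5 CPM and Rbl1 (p107) at 223 against 45.3 CPM. Rb1 itself stood at 297 in cycling and 381 CPM in other nuclei, but its direction varied by lineage. It stood at 384 against 206 CPM in T and NK and 611 against 325 CPM in macrophage nuclei, and at 95.5 against 294 CPM in B and 344 against 950 CPM in luminal nuclei. Of 8 G1 cyclins and partner kinases, 3 were higher, namely Ccne1 at 35.6 against 2.43 CPM, Ccne2 at 121 against 5.80 CPM and Cdk6 at 368 against 119 CPM.

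**Figure D4:**
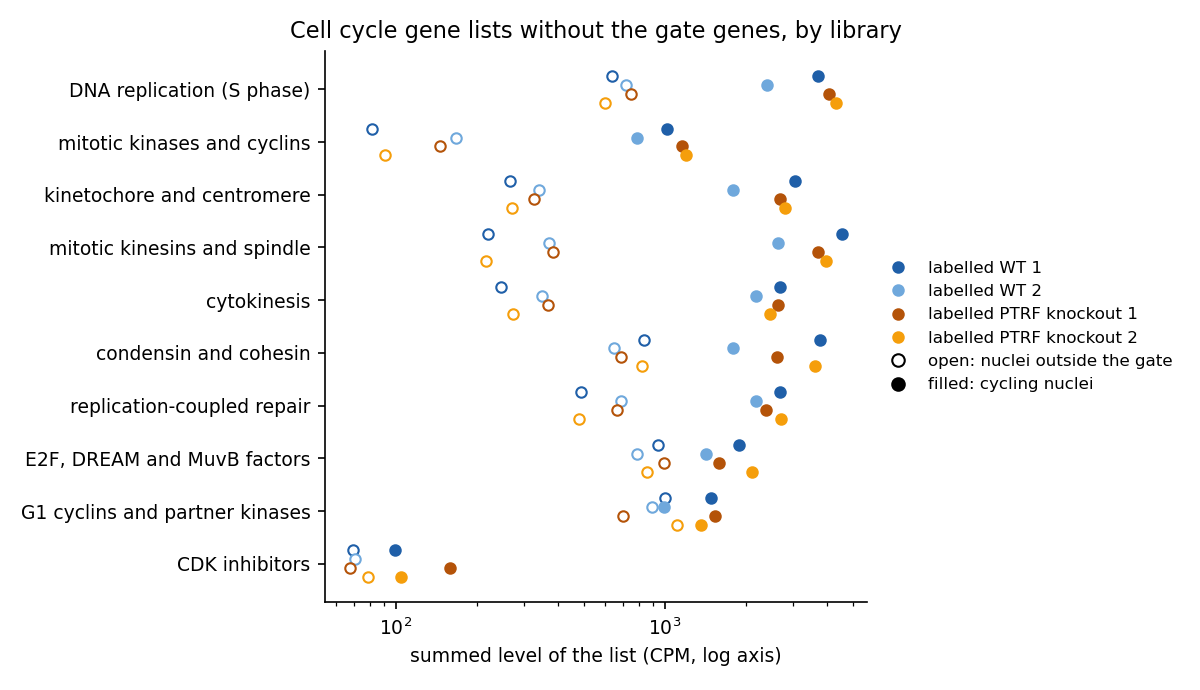
Summed level of each cell cycle list, without gate genes, in cycling nuclei (filled) and other nuclei (open) of each library, on a logarithmic CPM axis. The S phase and kinesin lists are separated in all 4 libraries, the CDK inhibitors are not, and the cycling nuclei of the library labelled WT 2 had no UMI of a CDK inhibitor and are not drawn there.

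The D-type cyclins, which carry growth signals to the cycle, did not follow the E-type cyclins. Over all lineages Ccnd3 stood at 646 in cycling and 706 CPM in other nuclei, Ccnd2 at 96.9 and 79.9 CPM, and Ccnd1 at 30.1 and 46.6 CPM. Within lymphocytes Ccnd3 was the lower of the pair in every library with at least 10 cycling nuclei. In T and NK nuclei it stood at 958, 1048, 240 and 910 CPM in cycling and at 2046, 1347, 1037 and 2570 CPM in other nuclei of the libraries in the order used above. In B nuclei of the libraries labelled WT 1, WT 2 and PTRF knockout 2 it stood at 549, 382 and 722 CPM against 1584, 947 and 1814 CPM. Genes lower in every such library made up 32.7% of 19982 genes in T and NK nuclei and 31.7% of 18174 in B nuclei, among genes of at least 20 UMIs, so the direction is common.

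Ccnd1 had 0 UMIs in cycling B nuclei and 3 in cycling T and NK nuclei. Luminal nuclei had 14 UMIs of Ccnd1, or 253 CPM against 190 CPM in other luminal nuclei, and 0 of Ccnd2. Of Ccnd3, cycling T and NK nuclei held 283 UMIs, B nuclei 145 and luminal nuclei 19.

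None of the 7 CDK inhibitors was higher in 4 of 4 libraries. Cdkn2c (p18) stood at 36.8 against 14.4 CPM, higher in 3 of 4 libraries, Cdkn1b (p27) at 25.6 against 28.0 CPM and Cdkn2a at 12.3 against 9.97 CPM. Cdkn2d (p19) stood at 10.0 against 3.80 CPM, Cdkn1a (p21) at 6.68 against 9.90 CPM and Cdkn2b (p15) at 2.23 against 4.37 CPM, from 9, 6 and 2 UMIs. Cdkn1c (p57) had 0 UMIs in cycling nuclei, which allows a level of up to 3.34 CPM, and 2.51 CPM in other nuclei, so a difference was not detectable at this depth.

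Within T and NK and within B nuclei the lists were counted over 4 and over 3 libraries. Counts of these lineages therefore cannot be set against each other. In T and NK nuclei 20 of 34 S phase genes and 16 of 20 kinesin and spindle genes were higher in all 4 libraries, where 4.72% of all genes were. In B nuclei 22 of 34 and 15 of 20 were higher in all 3 libraries with at least 10 cycling nuclei, where 7.59% of all genes were. Mitotic kinases and cyclins were higher in 4 of 17 in T and NK nuclei and in 7 of 15 in B nuclei. Their summed level was 1193 CPM in cycling T and NK nuclei and 1046 CPM in cycling B nuclei. Summed over the S phase list, cycling T and NK nuclei stood at 4559 CPM, B nuclei at 4392 CPM, macrophage nuclei at 3860 CPM and luminal nuclei at 2841 CPM.

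Cycling B nuclei carried the genes of the germinal centre, the site in lymphoid tissue where B cells divide and mutate their antibody genes. Of 11 genes in that list, 8 stood higher in cycling than in other B nuclei in all 3 libraries with at least 10 cycling B nuclei, against 7.59% of all genes. Summed over the list, cycling B nuclei of the libraries labelled WT 1, WT 2 and PTRF knockout 2 held 2335, 2230 and 3100 CPM, against 407, 547 and 330 CPM in other B nuclei. The 2 cycling B nuclei of the library labelled PTRF knockout 1 held 1 UMI of the list. All 3 values in cycling nuclei were higher than those in other B nuclei, while cycling T and NK nuclei stood at 265 CPM and other T and NK nuclei at 268 CPM.

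Mybl1 (A-Myb), a factor of germinal centre B cells, was present in 48 of 86 cycling B nuclei. Its level was 859, 595 and 887 CPM in cycling nuclei of those 3 libraries and 37.1, 53.9 and 14.2 CPM in other B nuclei. In T and NK nuclei Mybl1 stood at 67.1 CPM in cycling and 10.3 CPM in other nuclei, so its difference was not limited to B nuclei. Bcl6, the repressor that directs the germinal centre state, stood at 412, 340 and 486 CPM against 82.5, 111 and 141 CPM.

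Gcsam, a germinal centre signalling protein, stood at 104 against 5.79 CPM over the 4 libraries, Nuggc, a nuclear GTPase of germinal centre B cells, at 95.5 against 12.5 CPM and Eaf2, an elongation factor partner, at 417 against 81.8 CPM. Fas, the death receptor, stood at 113 against 32.9 CPM, but at 68.7 against 67.0 CPM, from 2 UMIs in cycling nuclei, in the library labelled WT 1. Basp1 stood at 130 against 20.9 CPM. Rgs13, a regulator of chemokine receptor signals, stood at 275, 21.2 and 578 CPM against 32.0, 25.5 and 22.1 CPM, so the library labelled WT 2 did not share the difference. Mef2b at 113 against 19.8 CPM and S1pr2, a receptor that keeps cells in the follicle, at 65.1 against 10.3 CPM also missed it in that library.

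**Figure D5:**
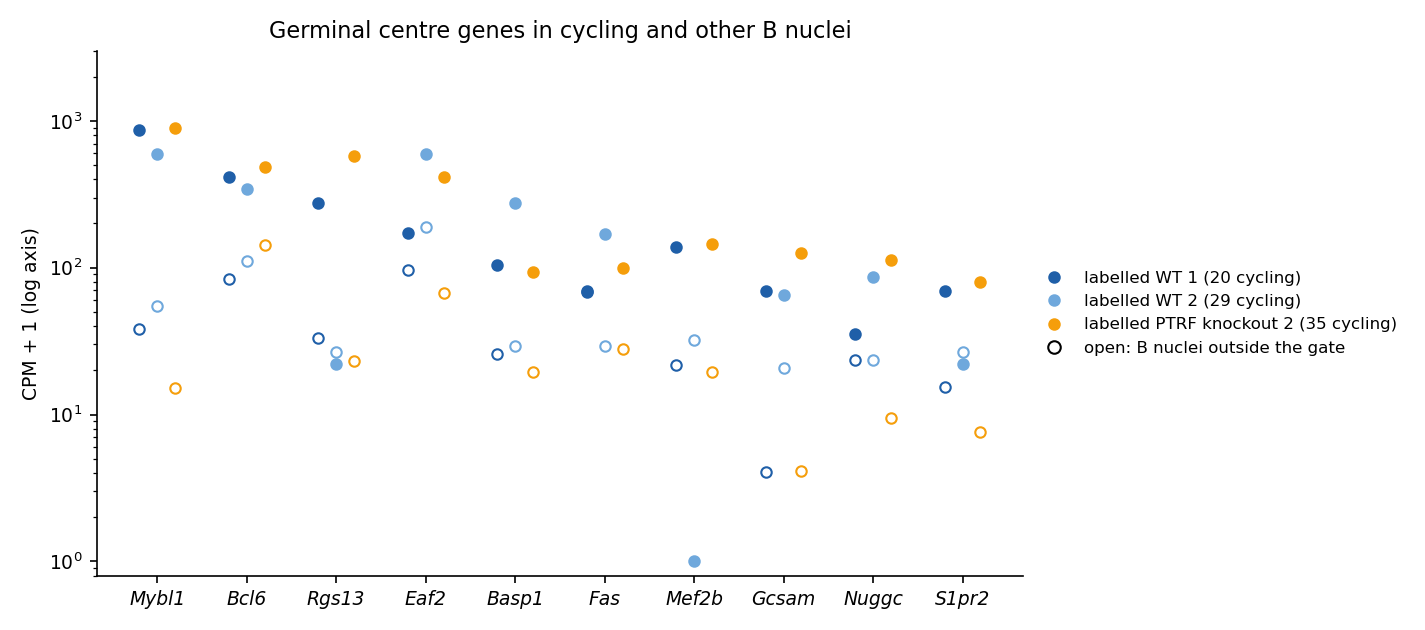
Level of 10 germinal centre genes in cycling (filled) and other (open) B nuclei of the 3 libraries with at least 10 cycling B nuclei, as CPM plus 1 on a logarithmic axis. Mybl1 and Bcl6 are higher in cycling nuclei of all 3, and Rgs13, Mef2b and S1pr2 are not in the library labelled WT 2.

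Read the other way, B nuclei with at least 2 germinal centre genes, Mybl1 left out, cycled in 8 of 49, 13 of 29, 0 of 16 and 25 of 99 cases in the libraries labelled WT 1, WT 2, PTRF knockout 1 and PTRF knockout 2. In all that is 46 of 193 (23.8%), against 40 of 4786 (0.836%) of B nuclei with 0 or 1 of these genes. Median depths were 1638 and 879 UMIs, and thinning to 500 UMIs for the gate gave 9.84% and 0.334%. The library labelled PTRF knockout 1, lowest in cycling B nuclei, also had the fewest B nuclei of this kind.

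Antibody genes, chosen after their values were seen, also differed. Ighd, the constant region of naive B cells, stood at 256 CPM in cycling and 973 CPM in other B nuclei, while Ighg2b, a switched class, stood at 404 against 24.8 CPM and Ighg1 at 86.8 against 17.9 CPM. Zfp318, which permits IgD transcripts, stood at 135 against 752 CPM. Ighm was close, at 560 and 432 CPM.

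For cycling T and NK nuclei, genes chosen after their values were seen gave another picture. Icos, a costimulatory receptor, stood at 347, 69.9, 775 and 263 CPM in cycling and 89.8, 62.0, 56.7 and 92.5 CPM in other nuclei, higher in 4 of 4 libraries, with 2 UMIs behind the value of the library labelled WT 2. Ikzf2 (Helios) stood at 1305, 559, 2751 and 1138 CPM against 363, 306, 307 and 365 CPM. Il1rl1, the IL-33 receptor, stood at 128 against 16.9 CPM and Il2ra, the IL-2 receptor alpha chain, at 195 against 89.8 CPM. Tcf7 and Lef1, factors of naive T cells, stood at 156 against 289 CPM and 394 against 644 CPM. Gzma, Gzmb, Ncr1 and Klrb1c, genes of cytotoxic and NK cells, had 0 UMIs in the cycling nuclei, which allows up to 9.15 CPM, and 3.73 to 17.4 CPM in the others, so a lower level was not detectable where the others lay under that limit. Foxp3, the regulatory T cell factor, had 9 UMIs in 5 nuclei.

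Ulbp1, which encodes a stress ligand of the NKG2D receptor of NK and T cells, was higher in cycling nuclei of 4 lineages, and was likewise chosen after its values were seen. It stood at 769 against 172 CPM in T and NK nuclei, 1042 against 71.7 CPM in B nuclei, 1244 against 147 CPM in macrophage nuclei and 308 against 8.66 CPM in luminal nuclei. Of the 17 luminal UMIs, 10 lay in 1 nucleus of the library labelled WT 1, and the library labelled WT 2 had 0. In B nuclei it stood at 859, 680, 1011 and 1189 CPM in cycling nuclei, and in other B nuclei it lay between 33.9 and 110 CPM. The values did not overlap over the 4 libraries.

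Of the 24 cycling macrophage nuclei, 14 came from the library labelled PTRF knockout 2, so the pooled levels below lean on that library. Mrc1 stood at 1512 against 1505 CPM in other macrophage nuclei, Adgre1 at 1019 against 873 CPM and F13a1 at 1587 against 2103 CPM. Timd4, Lyve1 and Cd209b, markers of resident macrophages, had 0 UMIs in cycling nuclei, which allows up to 32.2 CPM, and stood at 229, 103 and 114 CPM in the others. Ccr2, a receptor of cells recruited from blood, stood at 429 against 235 CPM. Of Spp1, 190 UMIs lay in 2 nuclei of the library labelled PTRF knockout 2, so its level describes those 2.

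Genes of the cycling macrophage and luminal nuclei other than lineage markers were also chosen after their values were seen. The 15 cycling luminal nuclei held Kit, a receptor of luminal progenitors, at 489 CPM against 492 CPM in other luminal nuclei. In the libraries labelled WT 1 and PTRF knockout 1 it stood at 1343 and 760 CPM against 566 and 530 CPM. Cycling luminal nuclei of the remaining 2 libraries had 0 UMIs of Kit. In the same secretory-type list, Elf5 stood at 163 against 340 CPM and Aldh1a3 at 54.3 against 107 CPM. Cd14 stood at 18.1 against 88.1 CPM and Lcn2 at 36.2 against 175 CPM. Wfdc18 and Folr1 were higher, at 398 against 147 and 90.5 against 15.3 CPM, from 22 and 5 UMIs. Ltf stood at 452 against 700 CPM. Of the hormone receptors, Esr1 was present in 26.7% of cycling and 34.3% of other luminal nuclei and Pgr in 13.3% and 11.5%. The cycling luminal nuclei were deeper, at a median of 3320 against 1916 UMIs, which raises such shares. Per UMI the receptors were lower, with Esr1 at 181 against 423 CPM and Pgr at 145 against 340 CPM. Prlr stood at 651 against 1777 CPM. Wnt4, Foxa1 and Cited1 of the hormone-sensing list stood at 398 against 110, 163 against 64.6 and 181 against 101 CPM, with 20 of 22, 9 of 9 and 10 of 10 UMIs in the library labelled PTRF knockout 2. Of the milk genes, Csn3 stood at 308 against 1571 CPM, Csn1s1 at 163 against 1128 CPM with its 9 UMIs in 1 nucleus, and Btn1a1 at 18.1 against 319 CPM. Csn2 stood at 127 against 292 CPM, yet at 409 against 250 CPM in the library labelled PTRF knockout 1, which held all 4 cycling nuclei with it, while Csn1s2a had 0 UMIs, which allows up to 54.3 CPM, against 99.3 CPM.

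A few nuclei held genes of red cell precursors, for which no lineage list was made, and which were chosen after their values were seen. The deepest cycling nucleus, in the library labelled PTRF knockout 2, had 18069 UMIs, 4853 genes and all 9 gate genes. The adipocyte list took it on 3 markers, yet it held 20 UMIs each of Kel, Ermap and Rhag, genes of red cell membrane proteins. Nuclei with at least 3 of 9 core erythroid genes numbered 5, 1, 0 and 1 in the 4 libraries, of which 3, 1, 0 and 1 were cycling. The lineage rule called the 5 cycling ones adipocyte in 2 cases and progenitor, vascular endothelial and unassigned in 1 case each, so these lineages hold nuclei whose name the erythroid genes go against.

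Nuclei that carry markers of a second lineage moved with depth and with 1 library. At least 3 markers of a second list were present in 13 of 120, 7 of 74, 2 of 42 and 56 of 103 cycling nuclei, and in 6.81, 3.66, 3.86 and 26.9% of other nuclei. Without such nuclei the cycling shares were 0.740, 1.04, 0.347 and 0.406%, and the groups still did not overlap. Lymphoid nuclei then made up from 47.5 to 73.1% of cycling nuclei by library, a difference of -14.4 points between labels, and the epithelial and stromal differences were 3.95 and -0.431 points.

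Expression within cycling nuclei was compared between labels on UMIs summed per library, with edgeR's quasi-likelihood test and Benjamini-Hochberg adjustment. Of 4350 genes tested, 1 was called at an adjusted p under 0.05 (0.0230%), and 88 had an unadjusted p under 0.05. The S phase list had 25 tested members, 0 called and a median log2 difference of 0.34 for labelled PTRF knockout minus labelled WT, and the kinesin and spindle list had 19 tested members, 0 called and a median of 0.08, against a median of -0.02 over all genes tested. Without the library labelled WT 1, 35 genes were called (6 higher and 29 lower), and without any other single library 3 were.

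The called gene, Gm47283, is a predicted protein-coding gene at chrY:90784738-90816464 on the plus strand of GRCm38 in GENCODE M21. Whether its reads map to that place alone was not tested. Its UMIs in cycling nuclei numbered 18, 5, 789 and 3209 in the libraries labelled WT 1, WT 2, PTRF knockout 1 and PTRF knockout 2. These are 100, 62.5, 13688 and 8030 normalised CPM, and the groups did not overlap, as was the case for 27.5% of genes tested. The log2 difference was 6.99 ± 0.87 (SE; adjusted p = 0.0111 by edgeR). In a separate fit of nuclei outside the gate the same gene stood at 47.0, 25.8, 1949 and 1580 normalised CPM. Its log2 difference there was 5.60 ± 0.69 (adjusted p = 4.56e-12 by edgeR). The cycling nuclei had the higher level in 4 of 4 libraries, from 5 UMIs in that labelled WT 2. Each fit was normalised on its own genes, so these values do not give the size of that excess. The fit outside the gate called 26 of 27990 genes (0.0929%), Cavin1 among them, with a log2 difference of 5.08 ± 0.54 (adjusted p = 8.56e-17 by edgeR).

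In cycling lymphoid nuclei alone, 81, 53, 19 and 64 in the 4 libraries, edgeR called 1 of 3025 genes (0.0331%), again Gm47283, and 76 had an unadjusted p under 0.05. Its log2 difference was 6.82 ± 0.99 (SE; adjusted p = 0.00651 by edgeR). The values were 146, 62.5, 14264 and 11291 normalised CPM. Those of other lymphoid nuclei, from a separate fit, were 50.5, 20.3, 2737 and 2735 normalised CPM. In that fit edgeR called 6 of 19006 genes (0.0316%). Numbers of called genes were 15 without the library labelled WT 1, 3 without WT 2, 3 without PTRF knockout 1 and 10 without PTRF knockout 2. With a replicate block on crossed numbers, an alternative added after seeing the data, Gm47283 lost its call in lymphoid nuclei at a log2 difference of 6.87 (adjusted p = 0.622 by edgeR, against 4.28e-31 to 0.0099 in the other alternatives). No member of the germinal centre list was called, of which 3 were tested.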

How the data were processed

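Values deposited by the authors are raw counts of UMIs for each gene in each barcode, made against GRCm38 (mm10) and handled in Seurat 4.3.0, per the submitters' processing notes. The sources used here do not name the aligner or say whether strand was used. Per the labels' protocols, nuclei were taken with a Singleron GEXSCOPE kit. The lowest total per barcode in the files is 500 UMIs.

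Nuclei with at least 300 genes and at most 10% mitochondrial UMIs were kept. No doublet caller was run. The 9 gate genes, the lineage and cell cycle lists and the tests were chosen with earlier results of these data known. Genes are named by a rule: the gate genes, the 3 members per list with the highest level, the D-type cyclins, CDK inhibitors and germinal centre genes, Cavin1, and called genes; others are said to be chosen after their values were seen. A few genes that the rule names are not reported here. Sgo2a was read as Sgol2a, and 358 of 359 list entries were among the symbols.

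Libraries are the replicates, 2 a group, each named for its own mouse. The edgeR p-values rest on the spread between libraries, estimated with information shared over genes. The exact permutation p-values are bounded by the number of libraries. The depth of the cycling nuclei was 221199, 123205, 75848 and 477471 UMIs in all, which sets the precision of their levels. Levels in CPM are UMIs per 1000000 UMIs of the same nuclei. Normalised CPM are those of the edgeR fits, over the genes each fit kept and after TMM. Summed counts were tested with edgeR 4.0.16 (R 4.3.3; filterByExpr, TMM, robust glmQLFit), with DESeq2 1.42.0 as an alternative. Other alternatives were its size factors, no filter, gates of 2 or 4 genes, thinning, stricter nuclei, other lineage rules, a replicate block and leaving out each library. The fit was run on simulated data with log2 differences of 3 in 200 well-counted genes, at a fixed spread. It recovered 85% of them for cycling and 91% for cycling lymphoid nuclei. Smaller differences were not simulated.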

Additional observations from a re-analysis of the deposited data

How the results depend on the processing

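The difference in the share of nuclei that cycle kept its sign in all 12 alternatives, from -0.815 points with nuclei of at least 1000 UMIs and 500 genes to -0.130 points when thinned to 500 UMIs (an alternative added after seeing the data), and from -0.611 to -0.273 points with 1 library left out. The lymphoid difference kept its sign in all 14, from -24.3 to -5.76 points, and from -24.3 to -7.42 with 1 library left out. The epithelial difference ranged from -0.105 to 11.3 points with 1 library left out. The stromal difference was 1.12 points with a gate of 2 genes, 0.343 with at most 5% mitochondrial UMIs, 0.774 with lineages of at least 3 markers and 0 when thinned to 1000 UMIs, and from -1.51 to 0.872 with 1 library left out. It rests on 4 nuclei.

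Counts of called genes in cycling nuclei were 3 with no filter and 3 to 35 with 1 library left out. In cycling lymphoid nuclei they were 3 with no filter, 2 without nuclei holding markers of a second lineage (added), and 3 to 15 with 1 library left out. The cause was not tested. A left-out library leaves a lone sample, which is assumed to vary like the other group. Gm47283 stayed called in all 12 alternatives in cycling nuclei (log2 difference 6.62 to 7.52) and in 11 of 12 in lymphoid nuclei (6.35 to 7.67).

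Libraries share replicate numbers, but whether these pair samples is not known. Deviations of the libraries numbered 1 correlated at -0.13 across genes. This single value cannot decide it, since depth ran in opposite directions from replicate 1 to 2 in the groups. With the replicate block the share differences were -0.442, -15.9, 5.58 and -0.319 points, and edgeR called 1 gene in cycling and 3 in cycling lymphoid nuclei. With the numbers crossed (added) it called 1 and 0 genes. In the latter fit 29 genes had an unadjusted p under 0.05, DESeq2 without the block called 1 gene, and Gm47283 had an adjusted p of 0.622 by edgeR in lymphoid nuclei. Few nuclei limit the rarer lineages: a library's luminal share rests on 2 to 6 nuclei.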
